A study of Mus musculus with 18 samples.

Results

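The 4 mature strands of mouse miR-210 and miR-21a, mmu-miR-210-3p, mmu-miR-210-5p, mmu-miR-21a-5p and mmu-miR-21a-3p, were followed across every small RNA library of the series. They were chosen by name, as both strands (arms) of a hypoxia-induced and of an injury-induced microRNA hairpin, and are 4 of the 1431 microRNAs listed. The libraries came from male C57BL/6 mice of 8 to 12 weeks, for which the labels name no treatment, genetic change, hypoxia or injury. There were 18 libraries in 6 groups of 3: left eye, right eye, left lung, right lung, left testicle and right testicle. The design addresses whether microRNA levels differ between the left and right member of a paired organ, and the same libraries allow the organs to be compared with each other. No label tells if a left and a right organ were taken from 1 mouse, so n = 6 for an organ may overstate the replication, and p-values measure the spread between these libraries.

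MiR-210 is a direct transcriptional target of the hypoxia-inducible factors in many mammalian cell types, and its targets include the iron-sulfur cluster scaffold Iscu. Through such targets it is known to lower mitochondrial respiration when oxygen is short. MiR-21 (miR-21a in the mouse) is induced by inflammatory, growth and TGF-beta signals, is known for its rise in injured and fibrotic tissue, and represses the tumour suppressor Pdcd4. A microRNA hairpin is cut to a duplex, 1 strand of which is usually kept by Argonaute as the guide while the other is degraded.

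The mature sequences of the members are shown because the seed, bases 2 to 8 from the 5′ end, sets which transcripts a microRNA pairs with. They are from RefSeq on GRCm38.p6, which held all 4, and the capitals mark the seed.
miR-210-3p: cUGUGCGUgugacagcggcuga
miR-210-5p: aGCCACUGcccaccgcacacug
miR-21a-5p: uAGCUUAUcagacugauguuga
miR-21a-3p: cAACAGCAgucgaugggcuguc
The 4 seeds differ from each other. Guanine and cytosine made up 63.64% of miR-210-3p and 68.18% of miR-210-5p, against 36.36% of miR-21a-5p and 59.09% of miR-21a-3p. The miR-210 hairpin lies at chr7:141221384-141221493 on the minus strand and overlaps no other RefSeq gene. Its neighbours are Rassf7, 2725 bases away, and Gm51460, 6712 bases away. MiR-210-3p comes from chr7:141221407-141221428 and miR-210-5p from chr7:141221445-141221466. The miR-21a hairpin lies at chr11:86584067-86584158 on the minus strand, inside exon 12 and the 3′ UTR of Vmp1 on the same strand (transcript Vmp1-201, GENCODE M21). MiR-21a-5p comes from chr11:86584120-86584141 and miR-21a-3p from chr11:86584082-86584103.

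RefSeq also holds 2 mouse microRNAs that resemble miR-21a-5p, shown because their reads could be confused with it.
miR-21b: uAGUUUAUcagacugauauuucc
miR-21c: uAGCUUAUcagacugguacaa
MiR-21c, on chromosome 8, shares the whole seed with miR-21a-5p. Counted from 1 at the 5′ end of miR-21a-5p, its substitutions are A16G, G18A, U19C, U20A and G21A. MiR-21b, on chromosome 3, has the substitutions C4U, G18A, G21U and A22C, of which the first changes the seed. Neither was analysed here, and how reads matching more than 1 of these loci were counted is not given in the sources used here. No other mature sequence in the RefSeq table shares a seed with a member.

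Total counts per library were 2451484 to 2680204 in eyes, 2538402 to 2790471 in lungs and 952608 to 1893132 in testicles. The 3 counts that a count of 0 allows correspond to 1.08 to 1.22 counts per 1e6 counts (CPM) in eye and lung libraries and 1.58 to 3.15 CPM in testicle libraries. Intervals and floors cover counting error only, since no molecular identifiers are stated. MicroRNA markers of retina, lens and pigment epithelium summed to 232025 to 311176 CPM in eyes, 2595 to 6597 CPM in lungs and 17359 to 38882 CPM in testicles, and markers of lung and of testicular cells were likewise highest in the organ of their label. Right lung 1 stood apart from the other lungs. Among the 225 microRNAs with a lung mean of at least 50 CPM, it was the lowest lung for 38.7% and the highest for 32%. It had 48 microRNAs below 0.6 of the next lung, against at most 3 in any other lung library. Levels here are CPM after scaling by trimmed mean of M values (TMM) over all 18 libraries unless counts are named. Fold changes come from edgeR's quasi-likelihood test with Benjamini-Hochberg adjustment over all microRNAs tested, with 0.05 as the threshold for a call. These were 642 in fits of all libraries. Where the sides of an organ were compared, its 6 libraries were fitted alone, with 487 microRNAs in eyes, 430 in lungs and 464 in testicles. In bulk organs, fewer cells of a type and less RNA per cell cannot be told apart.

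The strand mmu-miR-210-3p, usually the guide of its hairpin, was highest in eyes. It ranged over 95.1, 151 and 184 CPM (lowest, median and highest library) in eyes, 1.93, 7.24 and 13.5 CPM in lungs, and 5.40, 18.3 and 23.7 CPM in testicles. Every eye library lay above every lung and testicle library, the lowest eye at 95.1 CPM and the highest other library at 23.7 CPM, while lung and testicle libraries overlapped. The means were 143 ± 31.4 CPM in eyes, 7.03 ± 3.98 CPM in lungs and 15.3 ± 7.41 CPM in testicles (SD, n = 6 each). Eyes were higher than lungs by a log2 change of 4.35 (SE 0.39; adjusted p 3.8e-08 in edgeR) and higher than testicles by 3.28 (SE 0.38; adjusted p 5.9e-07 in edgeR). The level was lower in lungs than in testicles, with a log2 change of -1.07 (SE 0.38; adjusted p 0.017 in edgeR). That difference was close to the median of all tested microRNAs in the same comparison, which was -0.90. It missed the threshold with library totals alone (-0.67), with left lung 1 (-0.46) or left testicle 1 (-0.55) as the scaling reference, and without right eye 2 (-0.45) or right testicle 2 (-0.66). With right eye 2 left out TMM took left testicle 3 as its reference library in place of right eye 3, and the eye against lung value was 3.55. With right eye 2 left out and right eye 3 kept as reference, an alternative added after seeing the data, the values were 4.25 for eye against lung and -1.05 for lung against testicle, both called.

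The partner strand, mmu-miR-210-5p, had the same order of organs. Its libraries ranged over 46.3, 61.2 and 84.2 CPM in eyes, 1.16, 2.70 and 3.36 CPM in lungs, and 5.79, 7.68 and 10.6 CPM in testicles. The 3 organs did not overlap. Means were 61.1 ± 14.1 CPM in eyes, 2.56 ± 0.745 CPM in lungs and 7.86 ± 1.79 CPM in testicles (SD, n = 6 each). The log2 fold change was 4.56 for eye against lung (SE 0.25; adjusted p 1.3e-10 in edgeR) and 2.93 for eye against testicle (SE 0.24; adjusted p 7.6e-09 in edgeR). For lung against testicle it was -1.62 (SE 0.26; adjusted p 3.2e-05 in edgeR), below the median of -0.90 over all tested microRNAs. Without right eye 2 the values were 3.78 for eye against lung and -1.003 for lung against testicle, both called. The lung values rest on few reads: the 6 libraries held 8, 11 and 9 counts on the left and 3, 7 and 9 counts on the right. The 3 counts in right lung 1 equal the floor.

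**Figure D1:**
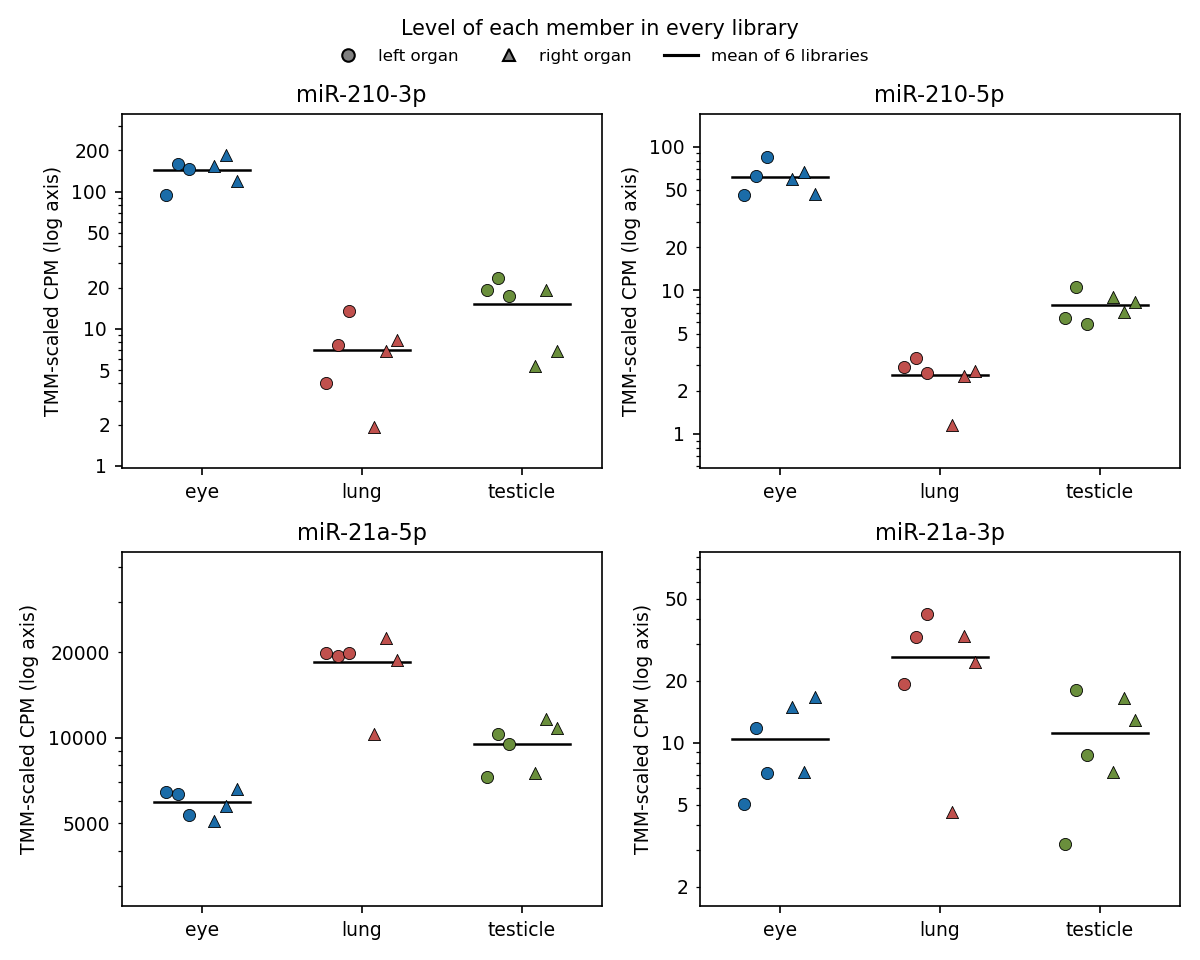
TMM-scaled CPM (log axis) of the 4 members in each of the 18 libraries, by organ. Circles are left organs, triangles right organs and lines the mean of 6 libraries. Both miR-210 strands are highest in all 6 eyes, and miR-21a-5p is highest in 5 lungs, with right lung 1 at 10295 CPM among the testicle values.

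The guide strand mmu-miR-21a-5p, which represses Pdcd4, was abundant in all 3 organs and highest in lungs. By mean level it ranked 39 of 1431 in eyes, 17 in lungs and 33 in testicles. Its libraries ranged over 5115, 6044 and 6591 CPM in eyes, 10295, 19644 and 22516 CPM in lungs, and 7296, 9942 and 11645 CPM in testicles. Every eye library lay below every lung and testicle library after TMM scaling. In CPM of library totals eyes and testicles overlapped, with right testicle 1 at 5452 CPM and the eyes at 5058 to 6712 CPM. The lungs lay above the testicles in 5 of 6 libraries, the exception being right lung 1 at 10295 CPM, while the other 5 held at least 18755 CPM. Means were 5935 ± 617 CPM in eyes, 18462 ± 4202 CPM in lungs and 9522 ± 1784 CPM in testicles (SD, n = 6 each).

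MiR-21a-5p was lower in eyes than in lungs, with a log2 change of -1.63 (SE 0.18; adjusted p 5.2e-07 in edgeR). It was lower in eyes than in testicles, with a value of -0.68 (SE 0.18; adjusted p 0.0024 in edgeR). This call was lost with library totals alone, at -0.43, and with left lung 1 as the scaling reference, at -0.16. Lung exceeded testicle by a log2 change of 0.95 (SE 0.18; adjusted p 1.5e-04 in edgeR), while the median of all tested microRNAs was -0.90. Without right eye 2, eye against lung was -2.34 and lung against testicle 1.58. Testicle libraries differed in red-cell microRNAs: the 4 markers summed to 235 CPM in left testicle 1 and 360 CPM in right testicle 1, against 5328 to 10510.5 CPM in the other testicles, and 1 of the 4 was at 0 in each of the first pair. The same libraries had the lowest testicular miR-21a-5p, 7296 CPM in left testicle 1 and 7498 CPM in right testicle 1, against at least 9525 CPM in the other 4. With both left out, the log2 fold change was -0.84 for eye against testicle and 0.81 for lung against testicle, and both stayed called. The 5 leukocyte microRNAs summed to 1124 to 1662 CPM in eyes, 9255 to 12820 CPM in lungs and 878 to 1471 CPM in testicles. The most abundant of them was miR-150-5p, at a mean of 1228, 9002 and 723 CPM in the same order. For eye against testicle, miR-150-5p was called higher (log2 change 0.77) and miR-155-5p was not called. The other 3 were called lower: miR-142a-3p (-2.85), miR-142a-5p (-2.65) and miR-223-3p (-1.29). Of all tested microRNAs, 40.2% were higher and 39.1% lower. The part of leukocytes in the level of miR-21a was not tested.

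The passenger strand mmu-miR-21a-3p was likewise highest in lungs by mean, at a far lower level. It ranged over 5.02, 9.50 and 16.6 CPM in eyes, 4.63, 28.6 and 42.0 CPM in lungs, and 3.22, 10.8 and 18.1 CPM in testicles. These values rest on 14 to 39 counts in eyes, 12 to 143 in lungs and 3 to 29 in testicles. The 3 counts in left testicle 1 equal the floor. The lungs other than right lung 1 lay between 19.2 and 42.0 CPM, above every eye and testicle library, whereas right lung 1 lay below all but left testicle 1. Means were 10.4 ± 4.70 CPM in eyes, 26.0 ± 13.1 CPM in lungs and 11.1 ± 5.74 CPM in testicles (SD, n = 6 each). The log2 fold change was -1.33 for eye against lung (SE 0.43; adjusted p 0.013 in edgeR) and 1.16 for lung against testicle (SE 0.45; adjusted p 0.026 in edgeR). Eye against testicle did not pass, at -0.17 (SE 0.46; adjusted p 0.74 in edgeR), and its sign turned with library totals alone (0.07), with left lung 1 as the scaling reference (0.38), with right libraries only (0.02) and without left testicle 2 (0.23), in none of which it was called. The lung against testicle call was lost when any of left lung 3, right lung 2, left testicle 1, left testicle 3 or right testicle 1 was left out, with log2 fold changes of 0.94 to 1.10 and edgeR adjusted p of 0.0504 to 0.066. With right lung 1 and both testicle 1 libraries left out together it was called, at 1.09 (adjusted p 0.013 in edgeR). Without right eye 2 it was 1.79.

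In the eye against lung comparison, edgeR called 4 of 4 members, 2 higher and 2 lower, where 59.8% of all tested microRNAs were called, 35.4% higher and 24.5% lower. For eye against testicle it called 3 of 4, 2 higher and 1 lower, where 79.3% were called, 40.2% higher and 39.1% lower. For lung against testicle it called 4 of 4, 2 higher and 2 lower, where 76.5% were called, 27.4% higher and 49.1% lower. A call is thus common among these organs, and the members' number of calls is not set apart from it. The split of all calls moved with the scaling reference: for eye against lung, 227 higher and 157 lower became 196 and 262 with left testicle 1, and for lung against testicle, 176 higher and 315 lower became 233 and 267 with left lung 1. By size, the absolute log2 fold change of miR-210-5p between eye and lung exceeded that of 84.6% of tested microRNAs and that of miR-210-3p exceeded 82.9%. In the same comparison miR-21a-5p exceeded 54.0% and miR-21a-3p 48.4%. Between eye and testicle the shares were 58.1% for miR-210-5p, 62.0% for miR-210-3p, 19.2% for miR-21a-5p and 6.07% for miR-21a-3p. Between lung and testicle they ran from 26.5% for miR-21a-5p to 44.5% for miR-210-5p.

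**Figure D2:**
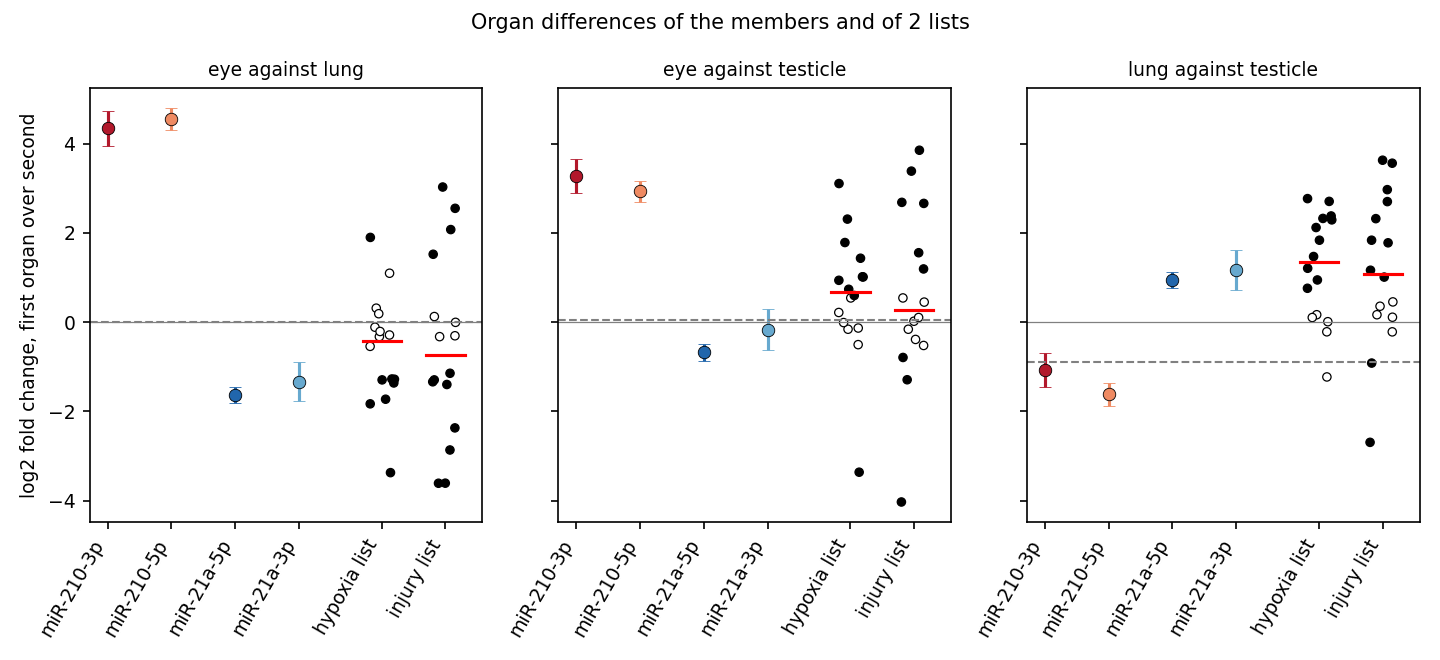
Log2 fold change of the 4 members (coloured points with SE from edgeR) for the 3 pairs of organs, and of 2 lists of 16 microRNAs (filled where called, open where not, red line at the list's median). The dashed line is the median of all 642 tested microRNAs, at 0.00, 0.05 and -0.90. The miR-210 strands stand at 2.93 to 4.56 in both eye comparisons, and miR-21a-5p is below 0 in both and above 0 for lung against testicle.

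The organ differences of miR-210-3p and miR-21a-5p were also set against each other within each library, where scaling between libraries has no effect. Counts of miR-21a-5p per count of miR-210-3p, summed over the libraries of an organ, were 41.4 in eyes, 2529 in lungs and 623 in testicles. On the log2 scale, with 0.5 added to each count, the ratio of miR-210-3p to miR-21a-5p averaged -5.40 ± 0.44 in eyes, -11.50 ± 0.67 in lungs and -9.41 ± 0.84 in testicles (SD, n = 6 each). The eye exceeded the lung by 6.11 and the testicle by 4.01, with no overlap of libraries in either case. Both had an exact two-sided permutation p of 0.0022, the smallest that 6 against 6 libraries allow, and an adjusted p of 0.0097 over 9 ratio comparisons. The lung was lower than the testicle by a difference of -2.10, with overlapping libraries (exact permutation p 0.0043, adjusted p 0.013).

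The strands of the 2 hairpins were counted in different proportions. Whether counts follow the retention of a strand was not tested. MiR-21a-3p made up 0.171% of miR-21a counts in eyes, 0.145% in lungs and 0.124% in testicles. MiR-210-5p made up 30.2% of miR-210 counts in eyes, 26.1% in lungs and 33.9% in testicles. Among hairpins with both arms listed and at least 100 summed counts in an organ, numbering 264 in eyes, 237 in lungs and 254 in testicles, miR-21a was more one-sided than 83.0%, 83.1% and 87.0% of them. The corresponding shares for miR-210 were 11.7%, 13.9% and 9.06%, so the counts of its arms were among the more even. MiR-21a had 93909 counts in eyes, 336877 in lungs and 74230 in testicles. A hairpin near 100 counts cannot reach its ratio whatever the use of its arms, so the shares for miR-21a partly reflect its abundance. The median hairpin had 36.4 counts of the major arm per count of the minor arm in eyes, 55.9 in lungs and 39.7 in testicles.

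No difference in strand use between organs passed the test. The geometric mean of miR-21a-5p to miR-21a-3p was 606 in eyes, 824 in lungs and 925 in testicles, and the adjusted exact permutation p was 0.49 for eye against lung, 0.32 for eye against testicle and 0.76 for lung against testicle. Single libraries spread over a wide range, 339 to 1241 in eyes, 473 to 2133 in lungs and 564 to 1942 in testicles. The highest lung ratio was that of right lung 1 and the highest testicle ratio that of left testicle 1, where 12 and 3 counts of miR-21a-3p were found. The geometric mean of miR-210-3p to miR-210-5p was 2.34 in eyes, 2.36 in lungs and 1.70 in testicles, with adjusted exact permutation p of 0.96, 0.49 and 0.49 in the same order of comparisons. In right testicle 1 and right testicle 3 the 5p strand had more counts than the 3p strand, 10 against 6 and 11 against 9, and in the other 16 libraries the 3p strand had more.

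**Figure D3:**
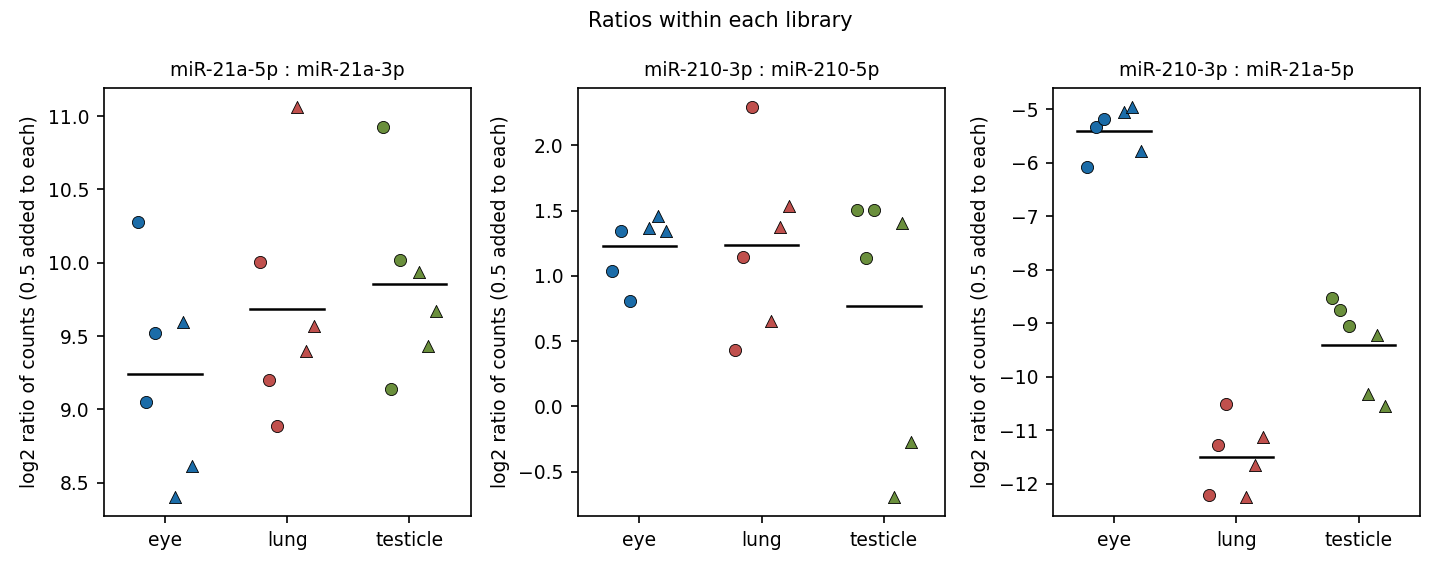
Log2 ratios of counts within each library (0.5 added to each count) for the arms of miR-21a, the arms of miR-210, and miR-210-3p against miR-21a-5p. Circles are left organs, triangles right organs and lines the mean of 6 libraries. Arm ratios overlap between organs, while the ratio of miR-210-3p to miR-21a-5p separates the eye, at a mean of -5.40, from the lung at -11.50 and the testicle at -9.41.

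The left and right organs were compared to ask whether either hairpin is used unequally on the 2 sides. No member was called in any organ by edgeR, of 4 tested in eyes, 3 in lungs (miR-210-5p was removed there by the filter on low counts) and 4 in testicles, and 0% of all tested microRNAs were called in each of these comparisons. At an unadjusted p under 0.05, 18 of 487 microRNAs differed in eyes, 1 of 430 in lungs and 36 of 464 in testicles, none of them a member. DESeq2 called 1 microRNA in eyes, 0 in lungs and 1 in testicles, and no member. Over all organs together, and in the joint test of whether the side difference varies between organs, edgeR called 0 of 4 members and 0% of 642 microRNAs. At an unadjusted p under 0.05 these 2 tests held 37 and 21 microRNAs, none of them a member, and DESeq2 called 0 in each.

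MiR-210-3p in testicles came closest to a side difference. Left testicles held 19.3, 23.7 and 17.4 CPM and right testicles 5.40, 19.1 and 6.83 CPM. The sides overlapped, since right testicle 2 lay between the left values. The log2 fold change of left against right was 1.10 (SE 0.47; edgeR p 0.054, adjusted p 0.57), on 18, 38 and 18 counts on the left and 6, 30 and 9 on the right. Leaving out 1 library at a time, it ran over 0.80 (without right testicle 1) to 1.86 (without right testicle 2), with edgeR adjusted p of 0.34 to 0.87 over the 6 repeats. MiR-21a-5p was much tighter: its left against right log2 fold change was 0.06 in eyes (SE 0.17), 0.15 in lungs (SE 0.25) and 0.05 in testicles (SE 0.19). Over all organs it was 0.04 (SE 0.14; adjusted p 0.96 in edgeR). For the other members over all organs it was 0.37 (SE 0.30) for miR-210-3p, 0.17 (SE 0.19) for miR-210-5p and -0.07 (SE 0.36) for miR-21a-3p. Each comparison within an organ was scaled on its own libraries, so its fold change need not follow the CPM scaled over all libraries. In testicles, the mean of miR-21a-5p was 9060 CPM on the left and 9984 CPM on the right.

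The spread of miR-21a-5p between libraries was smallest in eyes when all 6 libraries of each organ were kept. Its coefficient of variation over 6 libraries was 10.4% in eyes, where 17.4% of 264 microRNAs of at least 50 CPM varied less. It was 22.8% in lungs and 18.7% in testicles, with 32.4% and 41.1% of microRNAs varying less. In the eye, miR-210-3p varied by 21.9% and miR-210-5p by 23.1%, more than 70.1% and 74.6% of microRNAs. Without right lung 1, the lung coefficient of miR-21a-5p was 7.14%, below the 10.4% in eyes, and its mean 20096 ± 1436 CPM (SD, n = 5). The order of eye and lung thus rests on that library.

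All 4 members were at their lowest lung value in right lung 1, as were 38.7% of the 225 microRNAs with a lung mean of at least 50 CPM. MiR-21a-5p had 26659 counts there, 10265 CPM of the library total with a 95% exact binomial interval of 10143 to 10388.5, against 54840 counts in left lung 1, 21131 CPM with an interval of 20956 to 21306. The log2 of right lung 1 over the mean of the other 5 lungs, with 1 CPM added to each, was -0.96 for miR-21a-5p, -2.47 for miR-21a-3p, -1.63 for miR-210-3p and -0.83 for miR-210-5p. The middle 90% of the 225 microRNAs of at least 50 CPM ran over -2.24 to 1.52 in the same library, which takes in every member but miR-21a-3p. Of the members, only miR-21a-5p reached 50 CPM in lungs. Right lung 1 held 5 counts of miR-210-3p, 3 of miR-210-5p and 12 of miR-21a-3p, so that range does not match their counting error. Without right lung 1, the eye against lung log2 fold changes were 3.94 for miR-210-3p, 4.21 for miR-210-5p, -1.97 for miR-21a-5p and -1.78 for miR-21a-3p, and all 4 stayed called. That omission also made right eye 2 the TMM reference in place of right eye 3. With right eye 3 kept as reference, again an alternative added after seeing the data, the values without right lung 1 were 4.14, 4.41, -1.77 and -1.57 in the same order, all called.

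**Figure D4:**
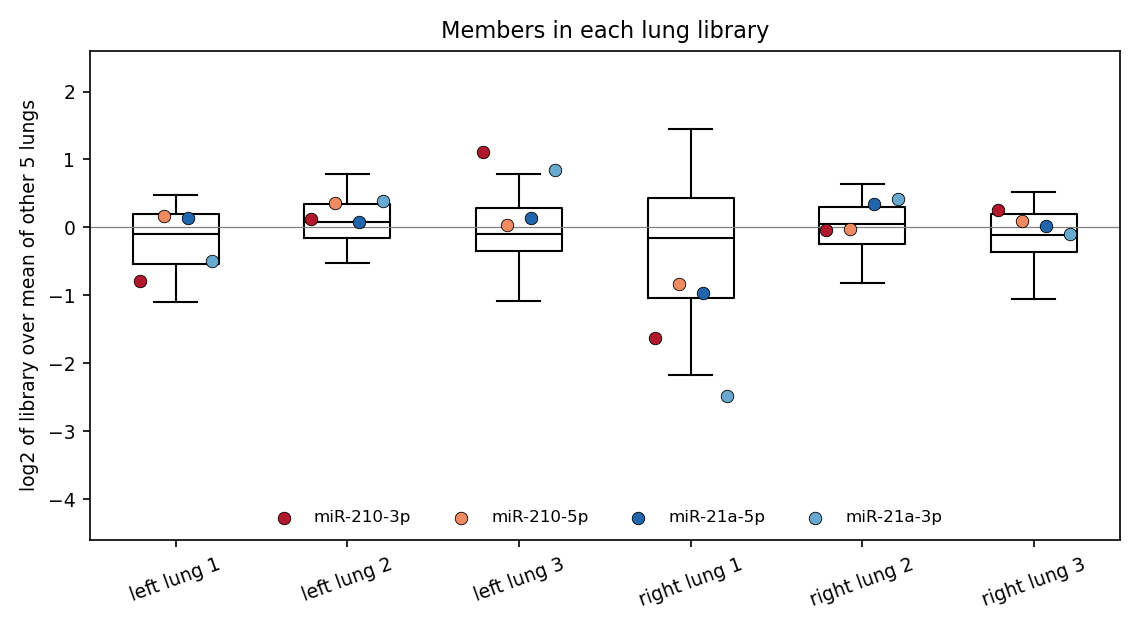
Each lung library over the mean of the other 5 lungs, on the log2 scale with 1 CPM added, for the 4 members (points) and for 225 microRNAs of at least 50 CPM (boxes: quartiles and median, whiskers: middle 90%). In right lung 1 all 4 members lie below 0, between -2.47 and -0.83, and the box is the widest of the 6.

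Of 16 other microRNAs known to respond to low oxygen, all tested, 1 was called higher in eyes than in both other organs, as the miR-210 strands were and as 27.3% of all tested microRNAs were. It was miR-181b-5p, named after its values were seen, with log2 changes of 1.90 against lungs and 3.11 against testicles. In eye against lung, 1 was higher, 7 were lower and 8 were not called, where 35.4% of all tested microRNAs were higher and 24.5% lower, with a median log2 change of -0.43 beside 0.00 for all tested microRNAs. In eye against testicle 9 were higher and 1 was lower, where 40.2% and 39.1% of all were, with a median of 0.67 beside 0.05. In lung against testicle 11 were higher and none lower, where 27.4% of all were higher and 49.1% lower, with a median of 1.34 beside -0.90. The list holds miR-23a-3p, miR-23b-3p, miR-24-3p, miR-27a-3p and miR-27b-3p, which come from only 2 clusters. All of them were called lower in eyes than in lungs, and higher in eyes and in lungs than in testicles. Each was counted separately, so the counts for this list are not counts of independent loci. MiR-24-3p, of the clusters miR-23a/27a/24 and miR-23b/27b/24, averaged 8726 ± 2302 CPM in eyes, 28939 ± 10241 CPM in lungs and 5762 ± 1622 CPM in testicles (SD, n = 6 each), with a log2 change of -1.73 for eye against lung (adjusted p 1.4e-05 in edgeR). MiR-23b-3p of the second cluster averaged 8725 ± 635 CPM in eyes, 21200.1 ± 3159 CPM in lungs and 4324 ± 828 CPM in testicles. MiR-26a-5p, at 41744 ± 4009 CPM in eyes, 45100 ± 7563 CPM in lungs and 41991 ± 4509 CPM in testicles, was called in none of the 3 comparisons. MiR-181a-5p averaged 46282 ± 4558 CPM in eyes, 37174 ± 7798 CPM in lungs and 13461 ± 1958 CPM in testicles, higher in eyes than in testicles by 1.79 (adjusted p 5.0e-09 in edgeR). With left testicle 1 as the scaling reference, 13 of the 16 were lower in eyes than in lungs, where the median of all tested microRNAs moved to -0.51.

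A list of 16 microRNAs tied to injury, inflammation and fibrosis, all tested, split between the organs. In eye against lung 4 were higher and 8 lower, where 35.4% of all tested microRNAs were higher and 24.5% lower, with a median of -0.74 beside 0.00 for all tested. In eye against testicle 6 were higher and 3 lower, where 40.2% and 39.1% of all were, with a median of 0.28 beside 0.05. In lung against testicle 9 were higher and 2 lower, where 27.4% of all were higher and 49.1% lower, with a median of 1.09 beside -0.90. MiR-146a-5p, a brake on NF-kappaB signalling, averaged 973 ± 265 CPM in eyes, 12056 ± 4233 CPM in lungs and 969 ± 239 CPM in testicles, with a log2 change of -3.61 for eye against lung (adjusted p 1.0e-09 in edgeR). It was highest in lungs, as was miR-21a-5p, but right lung 1 was its highest lung, at 20432.5 CPM. MiR-34a-5p, a p53 target, was highest in testicles, at 3102 ± 308 CPM in eyes, 7844 ± 1533 CPM in lungs and 51121 ± 9290 CPM in testicles (SD, n = 6 each). Its log2 fold change was -2.70 for lung against testicle (adjusted p 7.6e-11 in edgeR). MiR-29a-3p, a repressor of collagen transcripts, averaged 4116 ± 1099 CPM in eyes, 4167 ± 1525 CPM in lungs and 2989 ± 264 CPM in testicles and was called in none of the comparisons. MiR-31-5p was highest in eyes, at 6311 ± 457 CPM in eyes, 1507 ± 467 CPM in lungs and 436 ± 54.2 CPM in testicles. MiR-155-5p and miR-199a-5p stand in both lists. The injury list also holds related names, among them miR-29a-3p, miR-29b-3p and miR-29c-3p, miR-146a-5p and miR-146b-5p, and both arms of miR-199a. Each was counted separately, so the counts for this list are not counts of independent loci either.

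The microRNAs whose profile over the 18 libraries lay nearest to each member were taken by Pearson's r of log2 levels, among 312 candidates. The libraries fall into 3 organs and share them, so r is a description, given without a test. For miR-210-3p they were miR-384-5p (r = 0.96), miR-708-5p (0.96) and the striated muscle miR-133a-3p (0.96). MiR-384-5p had 4399 ± 936 CPM in eyes, 2.62 ± 1.73 CPM in lungs and 12.9 ± 7.21 CPM in testicles. For miR-210-5p they were miR-190b-5p (r = 0.98), miR-598-3p (0.98) and miR-495-3p (0.98). MiR-598-3p averaged 129 ± 15.9 CPM in eyes, 8.42 ± 1.002 CPM in lungs and 17.7 ± 3.49 CPM in testicles. No microRNA was among the nearest 3 of both miR-210 strands.

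For miR-21a-5p the nearest were miR-450b-3p (r = 0.96), miR-542-5p (0.93) and the epithelial miR-200a-3p (0.93). MiR-542-5p averaged 136 ± 16.9 CPM in eyes, 1612 ± 269 CPM in lungs and 539 ± 98.2 CPM in testicles, with the lung highest and the eye lowest, as for miR-21a-5p. For miR-21a-3p they were miR-30b-5p (r = 0.85), miR-186-5p (0.83) and miR-199b-5p (0.78), weaker than for the other members. MiR-186-5p had 28.96 CPM in right lung 1, against at least 107 CPM in the other lungs, so that library was its lowest lung as it was for miR-21a-3p. Striated muscle microRNAs summed to 4490 to 10452 CPM in eyes, 44.3 to 513 CPM in lungs and 618 to 1056 CPM in testicles, and their part in the level of miR-210 was not tested.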

How the data were processed

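The deposited files hold whole-number counts per mature microRNA, not normalized, with 1 table for each library, as the file headers and values show. Spin-column total RNA went into BGI-500 libraries per the labels' protocols, and the submitters' processing notes name GRCm38.p6. The aligner, counting program, multi-mapping rule and adapter handling were not given in the sources used here. Counts were tested with edgeR 4.0.16 (R 4.3.3): TMM scaling, filterByExpr by group (642 microRNAs kept, 789 removed), a fit of 6 groups and contrasts between organ means taken over both sides. The sides of each organ were compared in a separate fit of its own libraries, filtered and scaled anew. SE is the absolute log2 fold change divided by the square root of F. DESeq2 1.42.0 was an alternative. The edgeR procedure was tested on simulated counts for eye against lung, eye against testicle and the sides within each organ. The simulation gave every microRNA the same dispersion, not the members' own, and left out lung against testicle. It therefore does not bear on the calls of the members. Ratios within libraries were compared by exact two-sided permutation, adjusted over 9 comparisons. The text names the 4 members, the 4 most abundant microRNAs of each list and the 3 nearest profiles per member. Of the other list members, miR-181b-5p was named after its values were seen, and miR-155-5p and miR-199a-5p because they are in both lists. Further list members are named where they share a cluster, family or hairpin. The single leukocyte markers were named after their values were seen. Members, lists and tests were chosen with earlier results of these data known. In 10 sets, 22 names shared identical counts, none of them a member.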

Additional observations from a re-analysis of the deposited data

Results flagged for a closer look

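A library was singled out where, among the 6 libraries of an organ, its gap to the nearest other library exceeded Dixon's 95% critical value of 0.625 of the range. Chance alone singles out about 1 in 20 groups, and 6 of the 85 groups examined were singled out here. Of these, 3 were in right lung 1: miR-21a-5p was lowest there at 10294.9 CPM, with the next lung at 18755 CPM, miR-186-5p was lowest at 28.9626 CPM, with the next at 107 CPM, and miR-146a-5p was highest at 20432.5 CPM, with the next at 11582 CPM. In right eye 1, miR-495-3p had 288.193 CPM, with the next eye at 158 CPM. In left eye 1, miR-200a-3p had 1158.38 CPM, with the next at 751 CPM. In right lung 3, the 4 red-cell microRNAs summed to 5836.01 CPM, with the next lung at 2923 CPM.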

How the results depend on the processing

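Each comparison was repeated with other scalings, no filter on low counts, DESeq2, the replicate number as a block, 1 name kept of each identical set, each library left out and, for organs, left or right libraries alone. No member's called difference changed sign in any of these. Both miR-210 strands stayed called in every setting for eye against lung and eye against testicle. For lung against testicle, miR-210-3p lost its call with library totals alone (-0.67), left lung 1 (-0.46) or left testicle 1 (-0.55) as reference, left libraries only (-0.91) and right libraries only (-0.98). For eye against testicle, miR-21a-5p lost its call with library totals alone (-0.43) and left lung 1 as reference (-0.16). Right libraries only, which include right lung 1, ended the calls of miR-21a-3p for eye against lung (-0.66) and, for lung against testicle, of miR-21a-5p (0.71) and miR-21a-3p (0.67), leaving 1 member called. An alternative chosen after seeing the data, both testicle 1 libraries left out, gave 0.85 for miR-21a-3p in lung against testicle, not called. The cause of these losses was not tested. Left libraries only moved eye against lung to 3.39 for miR-210-3p, 3.84 for miR-210-5p, -2.31 for miR-21a-5p and -2.56 for miR-21a-3p.

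Leaving out 1 library at a time, log2 fold changes for lung against testicle ran over -1.31 to -0.45 for miR-210-3p and 0.94 to 1.79 for miR-21a-3p. Leaving out right eye 2 made left testicle 3 the TMM reference and moved eye against lung to 3.55 for miR-210-3p, 3.78 for miR-210-5p and -2.34 for miR-21a-5p, and lung against testicle to -0.45 for miR-210-3p, -1.003 for miR-210-5p, 1.58 for miR-21a-5p and 1.79 for miR-21a-3p. With right eye 3 kept as reference (added after seeing the data), leaving out right eye 2 or right lung 1 changed no member's call in these comparisons. With left testicle 1 as reference, eye against lung was 3.66 for miR-210-3p, 3.88 for miR-210-5p and -2.31 for miR-21a-5p. Over the scalings and fixed references on all 18 libraries, the median of all tested microRNAs ran over -0.51 to 0.00 for eye against lung, -0.12 to 0.56 for eye against testicle and -0.90 to -0.31 for lung against testicle. Without right eye 2 it was -0.54, -0.05 and -0.29.

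For left against right, the number of all microRNAs called, 0 in each comparison, became 6 in eyes with no filter and 1 with DESeq2, 1 in lungs with no filter, 1 in testicles with DESeq2 and with both testicle 1 libraries left out, and 7 in the joint test with no filter. With 1 library left out it was 0 to 1 in eyes, the testicle, over all organs and in the joint test. No member was called in any of them.

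The labels do not tell if same-numbered left and right libraries share a mouse, and not every such pair correlated above 0.1 in its deviations from the group means. The range was -0.42 to -0.11 in eyes, -0.02 to 0.40 in lungs and 0.02 to 0.24 in testicles. Medians were -0.14, 0.16 and 0.12, against 0.08, -0.05 and -0.07 between different numbers, and both testicle 1 libraries were low in red-cell microRNAs. The replicate block changed no member's edgeR call. The miR-210-3p to miR-21a-5p ratio (differences 6.11, 4.01 and -2.10) had an adjusted exact p of 0.094 with organs paired by side and number. Sides stayed separate, and 6 pairs cannot go below 0.031. Left alone gave 5.81, 3.25 and -2.56 and right alone 6.41, 4.77 and -1.64, where 3 against 3 cannot go below 0.1. Depth limits the miR-210 strands in lung and testicle and miR-21a-3p everywhere, each at most 143 counts per library.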
